A study of Mus musculus with 16 samples.

Results

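The genes described here encode box H/ACA small nucleolar RNAs and small Cajal body RNAs, taken as every array feature whose transcript is assigned a symbol that begins with Snora or Scarna. The array carried 45 of them, 36 Snora and 9 Scarna, each with 1 probe. Genes whose probe was flagged well above background on 4 or more of the 16 arrays were kept, which left 38 genes (31 Snora and 7 Scarna) among 31484 genes tested in all. Scarna8, Scarna9 and Snora34 were above background on 0 arrays, Snora35 and Snora36b on 1, and Snora43 and Snora75 on 2. Just inside the threshold, Snora61 was above background on 8 arrays, and 26 of the kept genes were above background on all 16.

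RNA came from the livers of 16 male mice, each 6 weeks old, with 4 mice in each of 4 genotypes of CerS2. Ceramide synthase 2 is the enzyme that makes ceramides with very long acyl chains. The groups are WT, H/A (also labelled HA), Del (delHox) and Flox (delneo), all on a mixed C57BL/6 and SV129 background. The labels do not state what the delHox and delneo alleles contain, in which cells a deletion would act, or whether mice were littermates. No probe tested here carries the name of Cers2, so the genotypes could not be checked against the targeted gene. Liver RNA was purified on columns, primed with random and oligo-dT primers together, labelled with Cy3 and hybridised to 1 array per mouse.

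For 6 of 16 samples the scanner file listed for the sample did not lie at the slide and position that its label gives. The deposited value table matched the label position (r from 0.885 to 0.996 over those and the other samples) and is used throughout. With scanner files taken as listed, 0 members passed the test in any of the 5 comparisons made here. Among the 4 H/A arrays, mice 1 and 3 stood far from mice 2 and 4 in these genes. The H/A values are therefore given by array for the genes with the 6 largest fitted falls in Del and for some others. For all 38 genes they are given as a mean per array. The share of spots flagged well above background was 51.62% to 65.08% per array. Hepatocyte markers were present, with 7 of 8 tested.

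Box H/ACA RNAs fold into a pair of hairpins, each followed by a short single-stranded motif, the H box (ANANNA) and the ACA box. They pair with a target RNA and direct dyskerin, the catalytic protein of a complex with Nop10, Nhp2 and Gar1, to turn a chosen uridine into pseudouridine. Most Snora RNAs act in the nucleolus on ribosomal RNA, and Scarna RNAs act in Cajal bodies on the small nuclear RNAs of the spliceosome. In mammals most of them lie in introns of other genes and are released when the spliced intron is trimmed from its ends, so the amount of the mature RNA depends on the host gene, on trimming and on the proteins that protect it.

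The probes were 45 to 58 bases long, with a median GC content of 49.0%. The sequences of the genes with the 6 largest fitted falls in Del, of Snora24 (the smallest p in Del against WT) and of Scarna6 and Scarna2 (the Scarna with the largest fall and one that passed no test) show what was read on the array. They are printed as the scanner files give them, and capitals mark each match to the H box letters ANANNA.
Snora30: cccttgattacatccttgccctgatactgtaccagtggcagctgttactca
Snora2b: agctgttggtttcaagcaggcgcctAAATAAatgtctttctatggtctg
Snora21: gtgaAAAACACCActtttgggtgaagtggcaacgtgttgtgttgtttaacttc
Snora15: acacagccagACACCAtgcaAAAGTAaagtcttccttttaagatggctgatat
Snora28: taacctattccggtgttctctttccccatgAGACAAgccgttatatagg
Snora69: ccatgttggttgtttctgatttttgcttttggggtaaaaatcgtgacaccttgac
Snora24: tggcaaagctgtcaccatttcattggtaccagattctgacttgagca
Scarna6: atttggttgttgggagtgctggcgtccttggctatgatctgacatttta
Scarna2: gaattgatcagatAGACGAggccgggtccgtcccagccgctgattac
The letters ANANNA occurred on the printed strand in 27 of the 38 probes (71.1%) and in 54.6% of the 59679 array probes of the same length range. Some of these 6 hold the letters and others, such as Snora30 and Snora69, do not. A probe reads any RNA that contains its letters, so the mature small RNA and an unspliced host transcript were not separated.

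Scarna3a and Scarna3b are close relatives, shown next because their probes share 23 bases in a row, in capitals.
Scarna3a: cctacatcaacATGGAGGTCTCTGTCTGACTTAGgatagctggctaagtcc
Scarna3b: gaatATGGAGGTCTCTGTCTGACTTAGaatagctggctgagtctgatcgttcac
Signal from either RNA could reach the other's probe, so these values are uncertain as values of single genes.

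Box H/ACA and Cajal body RNAs were lower in Del than in WT liver. Of the 38 genes, 30 fell and 0 rose in the limma test (adjusted p under 0.05 by Benjamini-Hochberg over all 31484 genes), where 4.38% of all genes were called lower and 8.85% higher. An unadjusted p under 0.05 was found for 35 of the 38 and for 33.1% of all genes. The median log2 difference of the 38 was -1.69, against -0.11 over all genes tested, and -1.54 with the 6 genes that were below background on every Del array set to their bound. With the normexp background the median was -0.68, and 27 genes were called. In 31 of the 38 every Del array was below every WT array, as it was in 7.24% of all genes, and in 0 was every Del array above, as in 10.6% of all genes. A gene well above background only in the groups where it is high could enter this set through those groups, so the count does not cover all 45. Among the 26 genes above background on all 16 arrays, 21 fell, with a median of -1.62. In bulk tissue, fewer cells of a type and less RNA per cell cannot be told apart. Recovery of small RNAs on the columns was not measured, and its part in these differences was not tested.

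Snora30, whose human counterpart guides 28S ribosomal RNA, had the largest fall among the 26 genes above background on all 16 arrays. Its log2 signal in the WT mice was 10.63, 9.46, 10.37 and 10.42, and in the Del mice 5.54, 5.70, 5.16 and 5.82. In the Flox mice it was 10.51, 11.24, 10.62 and 10.17, and in the H/A mice 5.60, 8.44, 4.22 and 8.78. All Del arrays lay far below all WT and Flox arrays, H/A mice 1 and 3 lay among or below the Del arrays, and H/A mice 2 and 4 lay between the groups. Snora30 fell by 4.67 in Del (SE 0.73, 95% interval -6.23 to -3.11, adjusted p = 0.000845 in limma), which is 25.4-fold, and by 3.51 with the normexp background. It lies in Srcap, a chromatin remodelling gene that was not among the genes tested.

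Snora21, another guide of 28S ribosomal RNA, read 7.69, 7.27, 7.82 and 7.57 in WT and 3.51, 3.37, 2.97 and 3.41 in Del. In H/A it read 3.30, 6.81, 2.78 and 6.69, and in Flox 7.79, 8.13, 7.87 and 7.63. No Del array was well above background, while all WT and Flox arrays were, so the fall is a bound. Snora21 was at least 16.2-fold lower in Del than in WT (adjusted p = 0.00095 in limma). For such genes the dim side was set, array by array, to the dimmest signal that counted as well above background or to what the probe itself read if higher. Snora21 lies in Rpl23, a ribosomal protein gene, whose own difference was 0.17 (adjusted p = 0.49).

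Snora2b read 4.99, 5.79, 6.68 and 6.38 in WT and 1.39, 1.60, 1.73 and 1.36 in Del. In Flox it read 6.30, 6.95, 6.58 and 6.31, and in H/A 1.39, 5.56, 1.36 and 5.76. Again the Del arrays were all below background, and H/A mice 1 and 3 were level with them. It was at least 5.26-fold lower in Del than in WT (adjusted p = 0.00255 in limma). Snora15, which guides 18S ribosomal RNA, read 5.40, 5.74, 6.31 and 6.24 in WT and 1.35, 2.81, 1.58 and 1.62 in Del. Its H/A values were 1.39, 5.0, 1.27 and 5.37, and its Flox values 5.94, 6.35, 6.20 and 6.45. The Del arrays and H/A mice 1 and 3 formed the low set for Snora15 too. It was at least 5.13-fold lower in Del than in WT (adjusted p = 0.00236 in limma), and its containing gene Cct6a, a chaperonin subunit, was not called (0.30, adjusted p = 0.135).

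Snora28, a guide of 18S ribosomal RNA, stayed above background on every array and so gives a measured fold. It read 9.53, 9.46, 10.15 and 9.99 in WT and 5.98, 6.24, 5.90 and 6.45 in Del. In Flox it read 9.80, 10.17, 10.22 and 10.25, and in H/A 6.12, 8.87, 6.00 and 8.77. No Del array overlapped a WT or Flox array, and H/A mice 1 and 3 fell within the Del range. Snora28 fell by 3.64 (SE 0.53, adjusted p = 0.000451 in limma), or 12.5-fold, while its containing gene Eif5, a translation initiation factor, differed by -0.08 (adjusted p = 0.764). Snora69 read 3.57, 5.45, 5.98 and 4.90 in WT and 1.60, 1.38, 1.33 and 2.11 in Del. In H/A it read 1.63, 5.06, 1.46 and 4.93, and in Flox 5.56, 5.79, 5.81 and 5.62. It was well above background on 3 WT arrays and 0 Del arrays, and was at least 2.66-fold lower in Del (adjusted p = 0.00639 in limma). With the slide in the names of the listed files as a block, Snora69 was not called. The 6 genes with the largest fitted falls include 4, Snora21, Snora2b, Snora15 and Snora69, whose falls are bounds, so their order is not established. The gene that contains Snora69, Rpl39, was not among the genes tested.

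**Figure D1:**
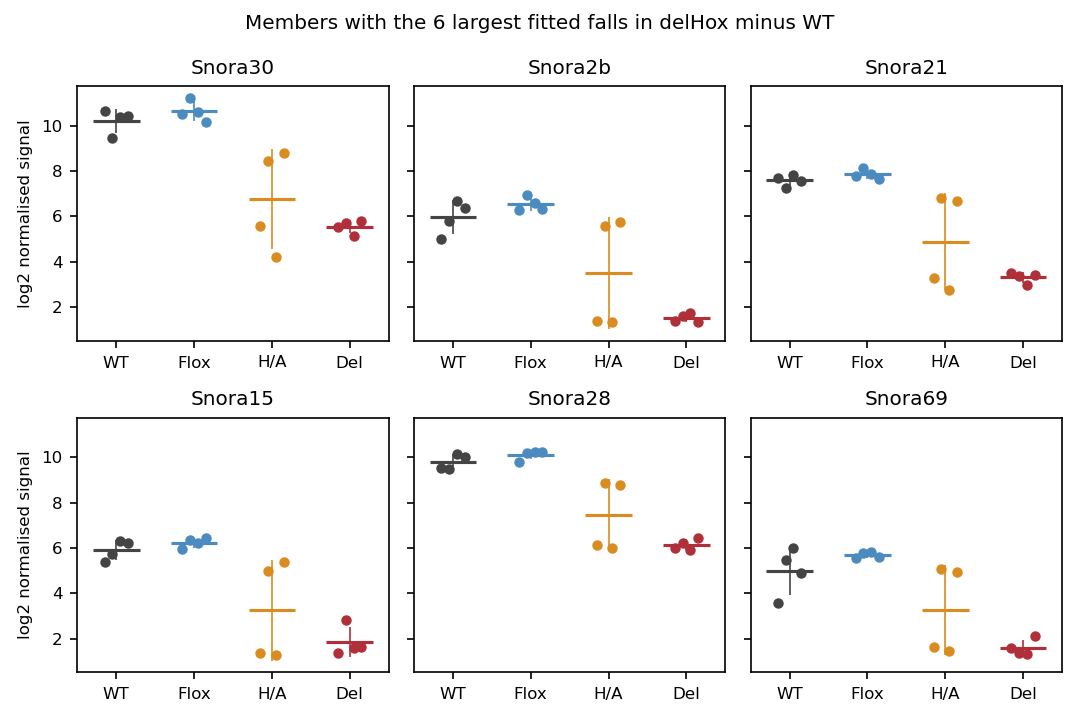
Log2 normalised signal (y axis) of the 6 genes with the largest fitted falls in Del against WT, by genotype (x axis); points are mice, long bars group means and thin lines ± 1 SD (n = 4). The 4 Del mice lie below the 4 WT and 4 Flox mice in every panel, and the H/A mice lie in a low pair and a high pair; the Del values of Snora21, Snora2b, Snora15 and Snora69 are readings below background and have no order.

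By target RNA the falls covered both ribosomal subunits. In this comparison, Del against WT, 4.38% of all genes were called lower. Of the 6 kept genes assigned here as guides of 18S ribosomal RNA by their human counterparts (Snora15, Snora20, Snora24, Snora28, Snora44 and Snora70), 6 fell in Del. Their median was -2.46 as fitted and -2.0 with Snora15, Snora20 and Snora70, which were below background on every Del array, at their bound. Of the 15 assigned here to 28S ribosomal RNA, 15 fell, with a median of -1.85 (the same with Snora21 at its bound) and a range from -4.67 in Snora30 to -0.50 in Snora52. Snora24 had the smallest p of the 38 genes. It read 9.14, 9.14, 9.21 and 9.15 in WT and 7.10, 6.54, 6.73 and 6.77 in Del. The 4 WT mice were nearly level and far above every Del mouse. Snora24 fell by 2.38 (SE 0.20, adjusted p = 1.06e-05 in limma), against -0.29 (adjusted p = 0.176) in Snhg8, the non-coding RNA gene that contains it. Snora16a, a guide of 28S ribosomal RNA, fell by 2.51 (SE 0.23, adjusted p = 1.5e-05 in limma) from 9.42 ± 0.20 in WT to 6.91 ± 0.25 in Del (SD, n = 4). In H/A it read 7.02, 8.24, 7.31 and 8.11, all below every WT mouse.

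The remaining genes assigned here as guides of ribosomal RNA also fell. The assignment may be incomplete, so a gene without one may still guide ribosomal RNA. Among the guides of 28S ribosomal RNA, the log2 difference was -3.05 for Snora64, -2.99 for Snora3, -2.29 for Snora81, -2.04 for Snora7a and -1.85 for Snora68. It was -1.76 for Snora17, -1.60 for Snora62, -1.48 for Snora65, -1.44 for Snora19, -1.13 for Snora33 and -1.07 for Snora74a. Of the 18S guides, Snora44 fell by 1.64, Snora20 was at least 1.78-fold lower and Snora70 at least 1.95-fold lower. Both of the last were below background in every Del mouse, and Snora20 was above it in 3 of 4 WT mice. Among Snora genes not assigned a ribosomal target here, Snora26 had the largest fall of those above background on every array. It read 10.57, 10.14, 10.65 and 10.36 in WT, 7.41, 7.18, 6.78 and 7.02 in Del, and 7.4, 9.57, 7.06 and 9.31 in H/A. All Del mice lay below all WT mice, H/A mice 1 and 3 were near the Del mice, and Snora26 fell by 3.33, or 10.1-fold (adjusted p = 0.000186 in limma). Snora47 (-1.75), Snora5c (-0.80) and Snora31 (-0.60) also fell. Snora23 was called lower (-2.18 as fitted) but was well above background on 1 of 4 Del arrays, so the size of its fall is not measured. Snora41 (-1.43, adjusted p = 0.0765), Snora78 (-0.34, adjusted p = 0.0915) and Snora61 (-0.23, adjusted p = 0.593) did not pass. Snora65 was well above background on 2 of 4 Del arrays, and Snora41 and Snora61 on 1, so the sizes of their differences are not measured either. With the slide in the names of the listed files as a block, 12 of the 30 were not called: Snora19, Snora20, Snora23, Snora31, Snora33, Snora52, Snora5c, Snora65, Snora69, Snora70, Snora74a and Snora81. Leaving out 1 array at a time ended the call of 9 of the 30 genes in at least 1 case. These were Snora19, Snora20, Snora23, Snora33, Snora52, Snora65, Snora70, Snora74a and Snora81.

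At the median, small Cajal body RNAs fell less in Del than the Snora genes. Of the 7 kept, 2 fell in Del, beside 4.38% of all genes. The median difference of the 7 was -0.54, against -1.85 for the 31 Snora genes (-1.75 with the 6 at their bound). Of the 7 differences 6 were below 0, and the difference between the families was not tested. Scarna6, whose human counterpart carries both box C/D and box H/ACA domains, read 9.0, 8.67, 8.50 and 8.69 in WT and 6.57, 5.98, 5.65 and 6.34 in Del. In H/A it read 5.88, 8.28, 5.95 and 7.88, and in Flox 8.84, 8.52, 8.54 and 8.80. Its Del values and those of H/A mice 1 and 3 formed a low set with no overlap with WT. Scarna6 fell by 2.58 (SE 0.43, adjusted p = 0.0012 in limma), and Atg16l1, the autophagy gene that contains it, differed by -0.12 (adjusted p = 0.479). Scarna13, a tandem H/ACA guide in the non-coding gene Snhg10, read 5.84, 5.97, 6.34 and 6.44 in WT and 5.55, 5.23, 5.19 and 5.33 in Del. Its groups did not overlap, and it fell by 0.82 (SE 0.16, adjusted p = 0.00305 in limma).

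The other 5 Scarna genes did not pass in Del against WT. Scarna10, also a composite guide in human, differed by -0.75 (adjusted p = 0.0595), beside a fall of 0.70 (adjusted p = 0.0415 in limma) in Ncapd2, the condensin gene that contains it. Scarna3b differed by -0.54 (adjusted p = 0.0684) and Scarna3a by -0.39 (adjusted p = 0.074). Scarna2, which in human is a box C/D guide of the U2 RNA, read 7.84, 7.45, 7.76 and 7.64 in WT and 7.73, 7.69, 7.16 and 7.39 in Del, and its groups overlapped. Its difference was -0.18 (95% interval -0.50 to 0.14, adjusted p = 0.398). Scarna17, likewise a box C/D guide in human, read 10.38, 10.05, 10.35 and 10.22 in WT and 10.63, 10.73, 10.07 and 10.08 in Del. These values overlapped across groups, with a difference of 0.13 (95% interval -0.29 to 0.55, adjusted p = 0.659), and its direction was not stable between settings.

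**Figure D2:**
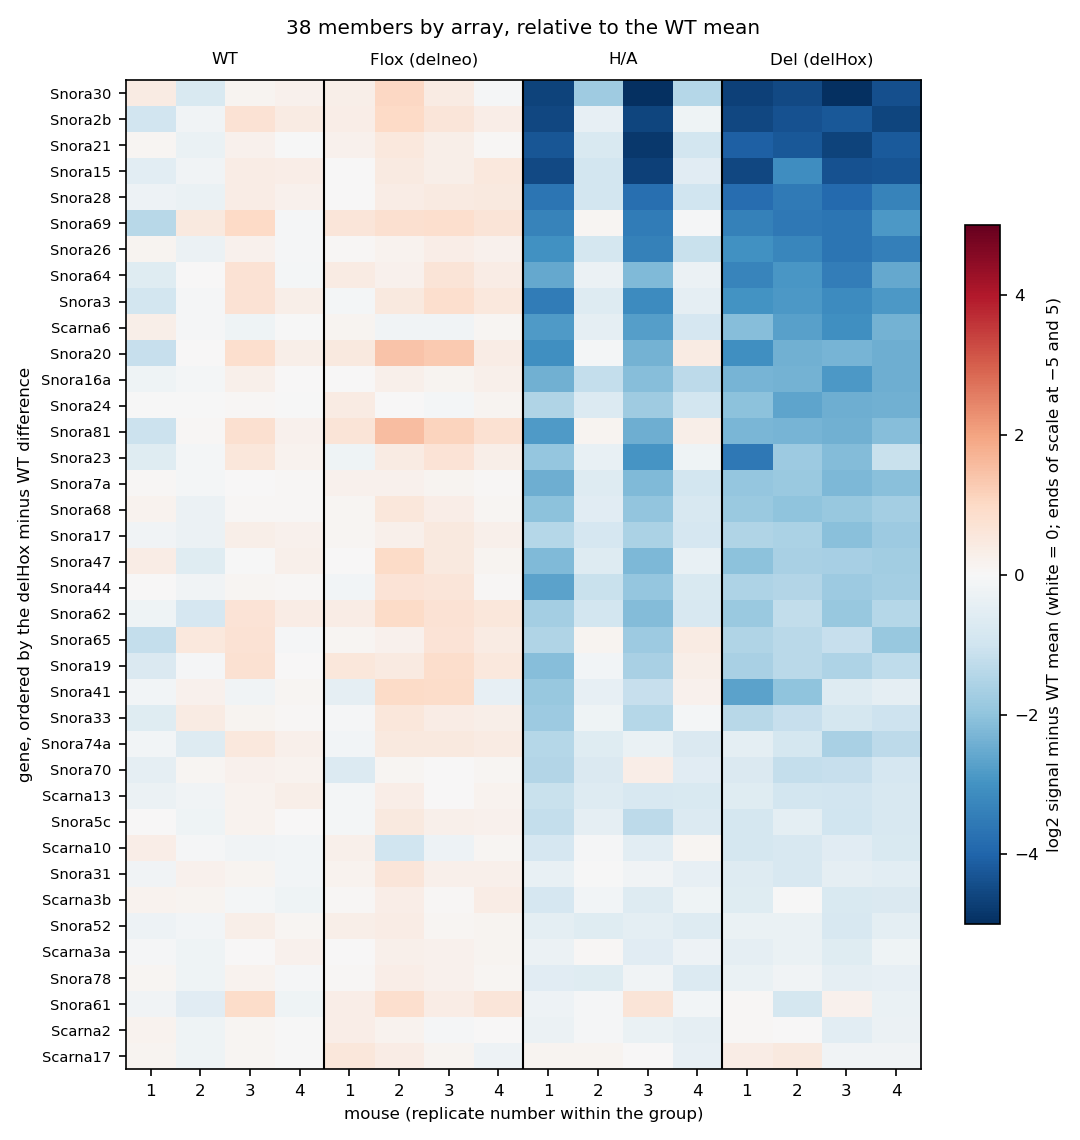
Log2 signal of the 38 genes (rows, ordered by the Del minus WT difference) in each of 16 mice (columns) minus the WT mean of the gene; blue is lower and red higher, and the colour scale ends at -5 and 5, so the lowest value, -6.0 for Snora30 in H/A mouse 3, is drawn at its end. H/A mice 1 and 3 look like the Del mice, and the rows at the bottom, ending with Scarna2 and Scarna17, vary little.

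Box H/ACA and Cajal body RNAs were also lower in Del than in Flox liver. Of the 38 genes, 34 fell and 0 rose (limma), where 18.2% of all genes were called lower and 16.6% higher, and in 34 of the 38 every Del array was below every Flox array (17.6% of all genes). In 0 was every Del array above every Flox array (15.9% of all genes), and 36 had an unadjusted p under 0.05 (49.0% of all genes). The median difference was -2.09, against -0.14 over all genes, and -0.94 with the normexp background. Snora30 fell by 5.08 (SE 0.73, adjusted p = 0.000382 in limma) and Snora28 by 3.97. Snora21 was at least 19.5-fold lower, Snora2b at least 7.83-fold, Snora15 at least 6.38-fold and Snora69 at least 4.38-fold. This comparison shares the Del arrays with that against WT, so the values stand side by side and neither supports the other. Genes called against Flox and not against WT included Scarna3a (-0.55 against -0.39), Scarna3b (-0.73 against -0.54), Snora41 (-1.68 against -1.43) and Snora78 (-0.52 against -0.34). Snora41 was well above background on 1 of 4 Del arrays, so the size of its fall is not measured. Scarna2 (-0.31), Scarna10 (-0.54), Scarna17 (-0.08) and Snora61 (-0.76) were called in neither.

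Flox and WT did not differ in any of these genes at the threshold. In limma 0 of 38 were called lower (0.0191% of all genes) and 0 higher (0.00318% of all genes), and 1 had an unadjusted p under 0.05, against 5.8% of all genes. Every Flox array was below every WT array in 0 genes (2.3% of all genes) and above in 0 (2.08% of all genes). Of the 38 differences 35 were above 0, with a median of 0.28 against 0.02 over all genes. The largest were in Snora81 (1.00, 95% interval -0.27 to 2.27, adjusted p = 0.802) and Snora20 (0.91, 95% interval -0.43 to 2.25, adjusted p = 0.802). All 38 genes were well above background in all 4 Flox mice.

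H/A liver had lower levels than WT on average, and the H/A mice differed widely among themselves. Of the 38 genes, 19 fell and 0 rose in limma, where 2.97% of all genes were called lower and 7.08% higher, and the median was -1.21 against -0.09 over all genes. The median was -0.57 with the normexp background and -0.68 with no scaling. Every H/A array was below every WT array in 15 genes, as in 7.65% of all genes, and above in 0, as in 9.02% of all genes. An unadjusted p under 0.05 was found for 26 of the 38 and for 32.8% of all genes. These p-values use a spread pooled over all groups. The median SD of the 38 was 0.86 in H/A and 0.22 to 0.29 in the other groups, so the pooled spread mostly understates that of the H/A mice. With the H/A and WT arrays fitted alone, 7 genes were called lower. Snora30 fell by 3.46 (SE 0.73, adjusted p = 0.00907 in limma), and Snora21 and Snora15 were called lower (adjusted p = 0.0237 and 0.0356). Both were well above background on 2 of 4 H/A arrays, so the size of their fall in H/A is not measured. The difference was -2.34 for Snora28, -2.09 for Snora26 and -1.93 for Snora3. Snora24 fell by 1.22 (SE 0.20, adjusted p = 0.00215) and Snora16a by 1.75 (SE 0.23, adjusted p = 0.000477). The other falls were in Snora44 (1.62), Snora7a (1.56), Snora62 (1.40), Snora47 (1.37), Snora68 (1.36), Snora17 (1.17), Snora5c (0.91), Snora52 (0.56) and Snora78 (0.52). Among the Scarna genes, Scarna6 fell by 1.72 (adjusted p = 0.0217) and Scarna13 by 0.83 (adjusted p = 0.00438).

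The comparisons of H/A and of Del with WT can be set side by side, although they share the WT arrays. Of the 30 genes that fell in Del, 18 fell in H/A, and of the 19 that fell in H/A, 18 fell in Del and Snora78 did not pass there. Snora2b (-2.44, adjusted p = 0.0665), Snora64 (-1.33, adjusted p = 0.0661), Snora69 (-1.70, adjusted p = 0.119), Snora23 (-1.38, adjusted p = 0.110), Snora20 (-1.28, adjusted p = 0.168) and Snora81 (-1.21, adjusted p = 0.169) had differences in H/A that did not pass. Snora19, Snora33, Snora41, Snora65, Snora70 and Snora74a lay between -0.90 and -0.61 and did not pass, nor did Scarna3b (-0.46), Scarna10 (-0.33), Scarna2 (-0.28), Scarna3a (-0.27), Snora31 (-0.24), Scarna17 (-0.04) and Snora61 (0.05). Of these, Snora2b, Snora69, Snora23, Snora20, Snora70 and Snora61 were well above background on 2 of 4 H/A arrays and Snora41 on 1. The sizes of their differences in H/A are therefore not measured.

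**Figure D3:**
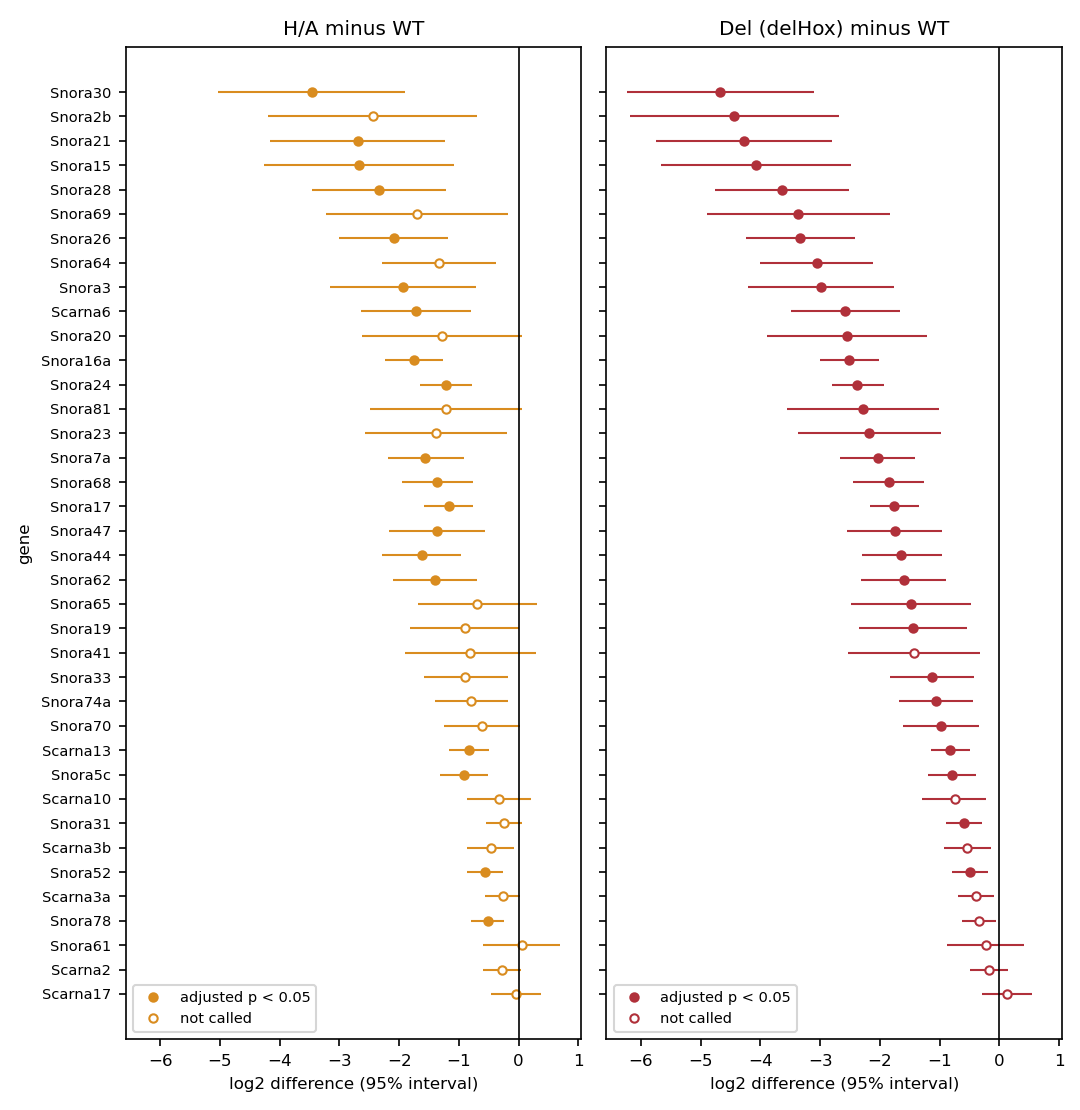
Log2 difference from WT (x axis, 95% interval of the single gene) of each of the 38 genes (y axis) in H/A and in Del; filled points have an adjusted p under 0.05. In Del 30 genes are filled and in H/A 19, including genes whose low values are readings below background; a gene's interval is equally wide in both, since the fit pools the spread of all groups.

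The average of the H/A group hid a split between mice. The mean deviation of the 38 genes from the WT mean was -2.04 in H/A mouse 1 and -1.92 in mouse 3, and -0.48 in mouse 2 and -0.48 in mouse 4. In the Del mice it was -1.93, -1.81, -2.00 and -1.80, in the WT mice -0.26, -0.14, 0.31 and 0.08, and in the Flox mice 0.14, 0.47, 0.40 and 0.24. H/A mice 1 and 3 were thus at the level of the Del mice, and mice 2 and 4 were between those and WT. In 30 of the 38 genes both of H/A mice 1 and 3 were below both of mice 2 and 4. These pairs were picked from the same values and the share of all genes in this order was not computed, so the count is a description. The median SD of the 38 genes was 0.86 in H/A, 0.29 in WT, 0.24 in Del and 0.22 in Flox, while over all genes it was 0.22 in H/A, 0.25 in WT, 0.27 in Del and 0.22 in Flox. More than 1 log2 unit below the WT mean were 29 genes in mouse 1, 26 in mouse 3, 3 in mouse 2 and 4 in mouse 4. The share of all genes was not computed for this either. The median deviation of all genes from the WT mean was -0.05 in H/A mouse 1, -0.11 in mouse 3, -0.09 in mouse 2 and -0.06 in mouse 4.

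By the labels, H/A mice 1, 2 and 3 were on the first slide and mouse 4 on the second, whereas the listed files would place all 4 on the first. Within the first slide the median H/A minus WT difference of the 38 genes was -1.20 with 0 called, and within the second, with 1 H/A array, it was -0.75 with 1 called. For Del the within-slide medians were -1.62 on the first slide, which held 1 Del array, and -1.86 on the second. On the second, 28 were called lower, beside 732 of all 31484 genes. Against Flox the medians were -2.14 and -2.08, and 29 were called lower on the second slide, beside 1162 of all 31484 genes. The count of falls in H/A was 15 without mouse 1, 19 without mouse 2, 14 without mouse 3 and 20 without mouse 4. It was 12 without WT mouse 3 and 11 without WT mouse 4. Leaving out 1 array ended the call of 8 of the 19 genes in at least 1 case. These were Scarna6, Snora3, Snora15, Snora21, Snora47, Snora52, Snora62 and Snora78. With the H/A and WT arrays fitted alone, so that the tighter Del and Flox groups did not enter the pooled spread, 7 genes fell. Snora30, Snora28 and Snora26 were not among them. The calls in H/A against WT thus depend on the spread being pooled over all groups.

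H/A and Del were not separated gene by gene. In limma 0 of 38 genes were called lower (0.00318% of all genes) and 0 higher (0.00953% of all genes), with a median of 0.52 and 10 unadjusted p under 0.05 (7.85% of all genes). Every H/A array was above every Del array in 3 genes (1.55% of all genes) and below in 0 (2.12% of all genes). Snora24 read 7.67, 8.48, 7.38 and 8.24 in H/A, above every Del mouse, and differed by 1.16 (95% interval 0.72 to 1.59, adjusted p = 0.165 in limma). Snora64 (1.72, 95% interval 0.77 to 2.67, adjusted p = 0.432) and Snora31 (0.36, adjusted p = 0.568) also had every H/A mouse above every Del mouse. For Snora30 the interval ran from -0.36 to 2.77, so a wide range of differences is left by these arrays. Within the second slide, with H/A mouse 4 alone, the median difference of the 38 genes from Del was 1.2, against 0.02 over all genes.

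**Figure D4:**
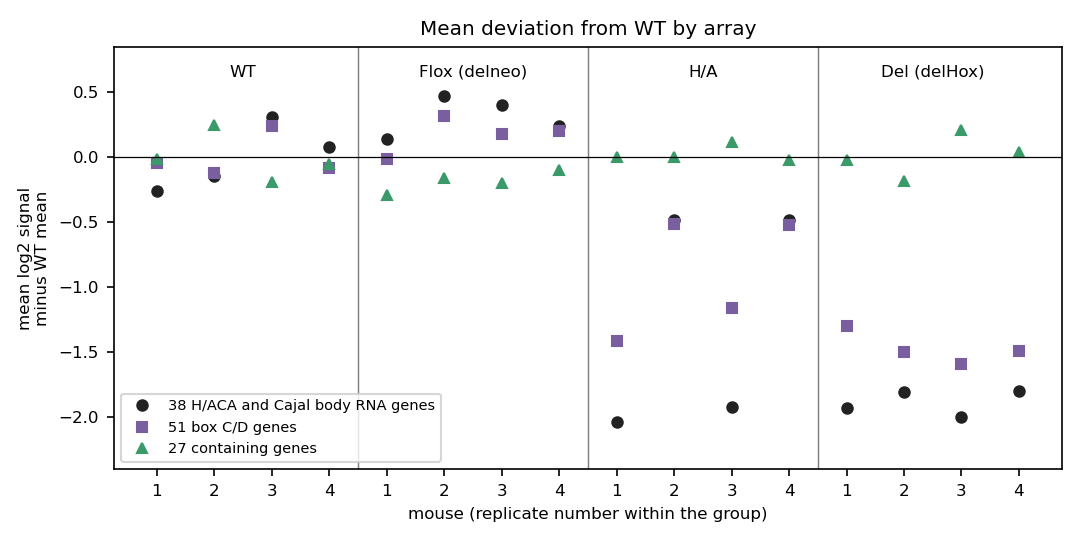
Mean log2 deviation from the WT mean (y axis) in each of 16 mice (x axis) for the 38 H/ACA and Cajal body RNA genes, 51 box C/D genes and the 27 genes that contain the members. The Del mice and H/A mice 1 and 3 lie between -2.04 and -1.80 for the 38 genes. The mean of the containing genes stays between -0.29 and 0.25 in every mouse, and single containing genes vary more.

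Few of the genes that contain the members were called lower. By position in the reference annotation, 37 of the 38 lie inside a protein-coding or long non-coding gene, and 29 lie inside one that was tested, which makes 27 genes. Of these 27, 1 fell (3.7%, beside 4.38% of all genes) and 0 rose in Del against WT, with a median of -0.05. In H/A against WT 3 fell (11.1%, beside 2.97% of all genes) and 0 rose, with a median of 0.03. These were Snhg7 (-0.49, adjusted p = 0.04 in limma), which contains Snora17, Eif4a2 (-0.37, adjusted p = 0.0401), which contains Snora81, and Snhg9 (-0.45, adjusted p = 0.0477), which contains Snora78. In Del against Flox 2 fell (7.41%, beside 18.2%) and 5 rose (18.5%, beside 16.6%), with a median of 0.30. Rpl27a, a ribosomal protein gene that contains Snora3, differed by -0.18 (adjusted p = 0.444) in Del, and Rpl32, which contains Snora7a, by 0.22 (adjusted p = 0.263). Dancr, a non-coding RNA gene, differed by 0.29 (adjusted p = 0.509), where Snora26 within it fell by 3.33. Snora17 had a difference of -1.76, and its containing gene Snhg7 one of -0.38 (adjusted p = 0.0823).

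**Figure D5:**
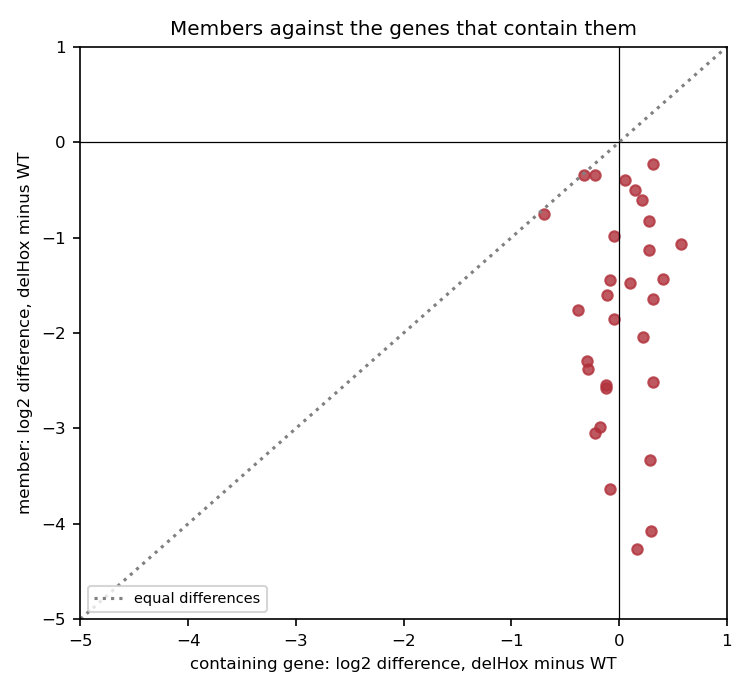
Log2 difference in Del against WT of each member (y axis) against that of the tested gene that contains it (x axis), 1 point per pair; the dotted line marks equal differences. The containing genes lie between -0.70 and 0.58, and the lowest point, Snora21 at -4.27, is a reading below background in Del.

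Members placed by position in the same containing gene differed from each other in Del against WT. The within-array difference between members was compared between groups for the 4 pairs that share a tested containing gene, in 12 exact two-sided permutation tests adjusted together, chosen with the values known. The smallest p that 4 against 4 mice allow is 0.0286. In Rps2, a ribosomal protein gene, Snora64 minus Snora78 went from 1.01 ± 0.53 in WT to -1.70 ± 0.39 in Del (SD, n = 4, exact p = 0.0286, adjusted 0.0429). Every Del mouse was below every WT mouse in this measure, and Rps2 itself differed by -0.22 (adjusted p = 0.303 in limma). By position Snora78 also lies in Snhg9, which differed by -0.32 (adjusted p = 0.119 in limma). Strand was not known, so a host shared by Snora64 and Snora78 is not established. In Snhg12, a non-coding gene with 3 members, Snora16a minus Snora44 went from 2.53 ± 0.16 in WT to 1.66 ± 0.13 in Del (SD, n = 4, exact p = 0.0286, adjusted 0.0429). Snhg12 itself differed by 0.32 (adjusted p = 0.334 in limma). The other 2 pairs hold Snora61, which was well above background on 1 of 4 WT and 1 of 4 Del arrays, so no difference is read from them. In H/A against WT the exact p was 0.343 for Snora64 minus Snora78 and 0.543 for Snora16a minus Snora44.

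Of the genes for the core proteins of the H/ACA complex, 3 of 4 were tested (Dkc1, which encodes dyskerin, was not), and 0 were called in Del or H/A against WT. Gar1 differed by -0.40 (adjusted p = 0.0648) in Del against WT and fell by 0.47 (adjusted p = 0.0187 in limma) against Flox, a comparison in which 16.6% of all genes rose and 18.2% fell, while Nhp2 rose by 0.40 (adjusted p = 0.0354) against Flox and Nop10 was not called. Of the assembly factors 6 of 8 were tested and 0 called against WT in either line, and against Flox Naf1 (0.64), Ruvbl1 (0.56) and Parn (0.36), the RNase that trims 3' ends, rose. Of the 14 tested Cajal body and nucleolar protein genes, Npm1 (0.56) and Gemin7 (0.47) rose in Del against WT and Ncl (0.36) in H/A. Against Flox 4 of the 14 rose, among them Gemin6 (0.74) and Gemin7 (0.75), and Gemin8 fell by 0.63. Coil (-0.07) and Wrap53 (0.03), which build Cajal bodies and bring RNAs to them, were not called in Del against WT.

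Rpap3, part of the chaperone complex that assembles box C/D particles, rose by 1.02 in Del (adjusted p = 0.00537 in limma) and by 1.05 in H/A (adjusted p = 0.00652), 1 of 4 tested assembly factors in each. Of the 4 core box C/D protein genes 0 were called against WT, and against Flox 3 rose, Fbl (0.68), Nop58 (0.60) and Snu13 (0.70). Of the 13 genes of the nuclear exosome, the RNA-degrading complex that trims these RNAs, Exosc7 rose by 0.53 and Exosc5 fell by 0.42 in Del against WT, and 0 were called in H/A. Against WT the 13 differences in Del ran from -0.91 to 0.53, with 2 below 0. Against Flox 5 of the 13 rose and 0 fell, in a comparison where 16.6% of all genes rose and 18.2% fell. The differences against Flox ran from -1.45, not called, to 0.69, with 3 below 0. Of the telomerase genes, Terc, an RNA with an H/ACA domain, differed by -0.33 (adjusted p = 0.142) in Del against WT, and Tert by 0.25 (adjusted p = 0.681).

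Most box C/D small nucleolar RNAs, which guide methylation of ribosomal RNA, were lower too. Of 51 box C/D genes kept of 65 on the array, 40 fell in Del against WT, 31 in H/A against WT and 49 in Del against Flox. Over all genes 4.38%, 2.97% and 18.2% were called lower in these comparisons. The medians of the 51 were -1.09, -0.77 and -1.18. Their mean deviation from WT was -1.41 and -1.16 in H/A mice 1 and 3 and -0.51 and -0.52 in mice 2 and 4. Of 4 genes whose symbols begin with Rnu, Rnu11 (-1.45), Rnu12 (-2.90) and Rnu3b2 (-3.09) fell in Del and Rnu2-10 (-2.57, adjusted p = 0.0588) did not pass. The mean deviation of these 4 from WT was -2.9 and -2.59 in H/A mice 1 and 3 and 0.4 and 0.34 in mice 2 and 4. Rmrp (-0.56, adjusted p = 0.0999) and Rpph1 (-0.76, adjusted p = 0.21), the RNAs of RNase MRP and RNase P, did not pass in Del against WT, and both fell in Del against Flox (0.96 and 1.21). Of the 10 genes outside the members whose pattern was most like the mean of the 38 over 16 arrays, Snord22 (Pearson r = 0.988), Snord37 (0.984), Snord17 (0.983), Snord16a (0.983), Snord47 (0.979), Snord49b (0.975) and Snord69 (0.974) are box C/D genes. The rest were Gm12238 (0.98), Vstm5 (0.977) and 1 transcript without a gene name. These arrays share genotype and slide, so r is a description.

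Across the 38 genes, those with lower GC in the probe tended to have the larger fitted falls. The 6 genes below background on every Del array, whose falls are not measured, had probes of 39.6% to 44.8% GC, below the median of 49.0%. They are in the correlation at their fitted values, and it was not computed without them. The correlation of probe GC content with the difference was 0.47 (Spearman 0.48) in Del against WT and 0.37 (Spearman 0.38) in H/A against WT, over 38 genes that are not independent replicates. Over all 31484 genes it was -0.13 and -0.19. Snora78, with the highest GC at 68.9%, differed by -0.34 in Del. Snora19, with the lowest at 36.7%, differed by -1.44 in Del, a smaller fall than the median of the 38 (-1.69). With probe length the correlation was -0.20 in Del.

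Some markers of other cells moved with the same groups, and their part in the results above was not tested. In the cholangiocyte, lymphocyte, stellate cell, sinusoidal endothelial and adipocyte lists 0 were called in H/A or Del against WT. Of 5 tested pancreatic acinar markers 1 fell in H/A and 1 in Del. Of 10 Kupffer cell and macrophage markers 9 were tested. In H/A against WT 8 rose and 0 fell, beside 7.08% and 2.97% of all genes. In Del against WT 6 rose and 0 fell, beside 8.85% and 4.38% of all genes. Their summed signal was 1520 to 2920 in WT, 1890 to 2620 in Flox, 4300 to 9400 in H/A and 3800 to 4620 in Del, and Cd68 was not tested. Of the 6 erythroid markers 4 were tested, with summed signals of 2170 to 2460 in WT, 770 to 3160 in Flox, 325 to 1330 in H/A and 640 to 1760 in Del. Alas2 fell by 2.09 in H/A, where 3 of the 4 differences were below 0 and 1 was above, at 1.54. In Del 0 of the 4 were called, with 3 below 0 and 1 above, at 0.79. Of 6 neutrophil markers 5 were tested, with Ly6g not tested. S100a8 rose in H/A (2.15) and in Del (1.70) and S100a9 in H/A (1.58), with summed signals of 242 to 369 in WT, 289 to 392 in Flox, 459 to 912 in H/A and 398 to 475 in Del. Over the 5 markers the median difference from WT was 0.40 in H/A, with 1 below 0, and -0.18 in Del, with 3 below 0. The summed hepatocyte signal was 236000 to 273000 in WT, 242000 to 275000 in H/A, 250000 to 262000 in Del and 239000 to 251000 in Flox. Within that list Serpina1c fell in H/A (-1.18) and in Del (-1.23), and Cps1 rose in H/A (0.68).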

How the data were processed

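Agilent Feature Extraction 11 and Partek are named in the submitters' processing notes. The deposited scanner files hold spot intensity, background-corrected and detrended per the file headers. The value table holds log2 values deposited by the authors with the same median, 4.36, on all 16 arrays, and was used for every value here. Of 60037 probes, 36264 were given symbols through transcript identifiers of the GRCm38.p6 table; the array design names mm9 per the file headers, so no positions are given. Probes above background on at least 4 arrays were kept, and the brightest probe stood for a gene. One limma 3.58.1 model (R 4.3.3) of 16 arrays gave 5 comparisons; the procedure was tested on simulated data. Arrays limit precision by their number, 4 a group, and p-values measure the spread between mice of the same group, pooled over all groups for each gene. Where the H/A mice spread more widely than the other groups, the pooled value understates their spread. The members and gene lists were chosen with earlier results of these data known, and human targets of members come from general knowledge. Genes named in full are the 6 largest called falls and rises of each comparison, every kept Scarna, called genes of the pathway lists (up to 4 a list), their containing genes, and the 10 genes most correlated with the members' mean. Mice are numbered in accession order, which pairs none. Containing genes were found by position, since the table has no strand. Alternatives covered file pairing, scaling, background, filters, slide blocks and each array left out.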

Additional observations from a re-analysis of the deposited data

Results flagged for a closer look

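Of 60 groups of 4 arrays tested over the 15 genes named with full statistics, 1 had an array far from the others. Snora28 read 9.80 in Flox mouse 1 against 10.17 to 10.25 in the other Flox mice, a gap of 0.834 of the group's range, just above Dixon's critical value for 4 samples. Chance alone gives about 1 such group in 20.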

How the results depend on the processing

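No paired analysis was possible because the labels carry no replicate numbers shared across groups. The count of members called kept within 1.5 times its value under most alternatives, and the exceptions follow. Scanner files as listed gave 0 in H/A against WT, Del against WT and Del against Flox. The count in H/A against WT was 9 (8 lower, 1 higher) with no scaling, 33 with the normexp background, 7 with the groups alone, and 0 and 1 within the first and second slide. In Del against WT it was 18 when the slide named in the listed file was a block and 0 within the first slide, as it was in Del against Flox. In H/A against Del it was 1 with no scaling, 1 with array weights and 13 within the second slide. Without scaling the median of all genes in H/A against WT moved from -0.09 to 0.37, and the share of higher calls over all genes from 70.4% to 98.7%; with normexp there were 4084 higher and 6667 lower calls. The median difference of the members shrank with normexp to -0.57, -0.68 and -0.94 in H/A against WT, Del against WT and Del against Flox. Leaving out 1 array gave 11 to 20 in H/A against WT, 21 to 31 in Del against WT, 32 to 35 in Del against Flox, 0 to 1 in H/A against Del and 0 to 0 in Flox against WT. The cause was not tested, beyond the fewer arrays within slides. No called member changed sign under these alternatives.

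Of the single values, 37 changed sign, none of them called in the reported comparison. In H/A against WT, Scarna17 became 0.07 with label-paired files, 0.19 with files as listed, 0.55 with no scaling, 0.17 with normexp, 0.03 with the file-name slide, 0.12 within slide 1, and between -0.10 and 0.09 when 1 array was left out (above 0 without H/A mouse 4 or, at 0.01, WT mouse 1). Snora61 became -0.16 with label-paired files, -0.28 with normexp, -0.14 with array weights, -0.52 within slide 2, and between -0.15 and 0.36 when 1 array was left out, at -0.15 without H/A mouse 3 and -0.0031, -0.14 and -0.02 without WT mouse 1, 2 or 4. Without scaling Scarna10 became 0.13, Scarna2 0.23, Scarna3a 0.20 and Snora31 0.21, and Snora31 became 0.10 with files as listed. Within slide 2 Scarna10 became 0.25, Snora41 0.27 and Snora65 0.07. In Del against WT, Scarna17 became -0.08 with the file-name slide, Scarna2 0.08 within slide 1, and Snora61 0.18 with files as listed, 0.42 within slide 1 and between -0.43 and 0.08 when 1 array was left out (0.08 without WT mouse 3). In Del against Flox, Scarna17 became 0.06 with label-paired files, 0.17 with files as listed, 0.13 with no scaling, 0.10 with normexp, 0.09 within slide 2, and between -0.23 and 0.04 when 1 array was left out (0.02 without Del mouse 3 or 4, 0.04 without Flox mouse 1).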
